A study of Mus musculus with 2 samples.

Results

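The Ifi200 family, also called the PYHIN family, is a cluster of interferon-inducible genes that lie next to each other on mouse chromosome 1. Members were taken by their symbol in the deposited gene lists: Ifi203, Ifi204, Aim2 and Pyhin1, which are 4 of the 28692 genes of the matrices. The matrices held 9 further genes of the same cluster, 13 in all, and these served for comparison. The choice used no measured value, but it was made when earlier results of these data were known.

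Most PYHIN proteins join a pyrin domain, which binds other pyrin domains, to a HIN domain, which binds DNA. AIM2 senses DNA in the cytosol and assembles an inflammasome with the adaptor ASC (Pycard) and caspase-1, which leads to release of interleukin-1 beta and interleukin-18 and to cell death through gasdermin D. Ifi204 has been described as a DNA sensor upstream of STING and as a regulator of transcription and growth, while Ifi203 and the gene named Pyhin1 here are less studied nuclear family members. Type I interferons raise the transcripts of many of these genes in macrophages and lymphocytes.

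A20 is a B cell lymphoma line that arose in BALB/c mice, and it was grown here under the skin of animals of that strain. Animals with an established tumour got an intravenous dose of TAK-981, an inhibitor of the enzyme that activates the small protein modifier SUMO, at 7.5 mg/kg, or the vehicle alone, 20% HPbCD (a cyclodextrin). Tumours from both arms were collected 8 h later, pressed through a filter, depleted of dead cells and profiled with the 10x Genomics 5' single-cell assay, which counts unique molecular identifiers (UMIs). There was 1 library per arm, and the number of mice behind each, their age and their sex are not stated in the labels. The arms therefore cannot be told apart from the animals and preparations they came from, no test between arms was possible, and every interval given is a 95% interval that covers counting error only.

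In total 37470319 UMIs from 2396 barcodes were available after TAK-981 and 57471750 UMIs from 2579 barcodes after vehicle. Barcodes with 10% or more of their UMIs from mitochondrial genes were left out, which removed 15.7% of TAK-981 barcodes and 4.81% of vehicle barcodes. T cells (at least 2 UMIs of Cd3d, Cd3e and Cd3g together) numbered 45 after TAK-981 and 60 after vehicle. Myeloid cells (at least 5 UMIs of Lyz2) numbered 39 and 44, and A20 cells (at least 1 UMI of Cd79a, none of the Cd3 genes or Lyz2) numbered 1754 and 2191. Host B cells, if any were captured, would also pass the last gate. The median depth was 7156 and 9068 UMIs for T cells, 8287 and 10636.5 in myeloid cells, and 16195 and 22309 in A20 cells, so the vehicle cells were deeper in every class. The T cells held 10 of 10 T cell markers in both libraries. Of 11 myeloid markers, the myeloid cells held Lyz2, Csf1r, Cd14, Fcgr3, Itgam, Adgre1, Tyrobp and Fcer1g in both libraries. C1qa, C1qb and C1qc were held in vehicle only, with 0 UMIs in TAK-981. The 2 libraries had 11 barcode sequences in common.

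All 13 gene identifiers were found in a GENCODE annotation of the mouse build GRCm38, where they span chr1:173350879-174031810. Aim2 opens the cluster at chr1:173350879-173466040 on the plus strand. Pyhin1, whose identifier now carries the symbol Ifi209, lies at chr1:173630917-173647928 on the plus strand. Ifi204 lies at chr1:173747293-173766943 and Ifi203 at chr1:173920407-173942672, both on the minus strand. The build the authors counted on is not given in the sources used here.

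Promoter sequence was examined because Ifi203 and Pyhin1 were at least 2-fold higher in TAK-981 in all 3 classes, as given further on, and Aim2 was not. In the 300-base windows that RefSeq's start sites define (250 bases before to 50 after, build GRCm38.p6, from the C57BL/6J reference rather than BALB/c), 3 of the 4 members had an entry, and 12 of the 13 family genes. The core of the interferon-stimulated response element, spelled GAAA, any 2 bases, GAAA and searched on both strands, was present in 9 of these 12 genes, against 3.44% of all 32851 promoter windows. The gamma-activated site TTCNNNGAA, also searched on both strands, was present in 1 of the 12, against 8.30% of all windows. Within the first element the family genes often shared the letters AAATCGAAA, which overlap it; this word was picked after the windows had been read, and it was found in 8 of the 12 genes and in 41 windows (0.125%) in all.

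The stretches next to the start sites of 3 members are shown because they hold, or lack, this element. The Ifi203 stretch is chr1:173942493-173942592 on the minus strand and ends 1 base before the start site at 173942492. The Pyhin1 stretch is chr1:173630759-173630858 on the plus strand, 1 base before the start site at 173630859. The Aim2 stretch is chr1:173420471-173420570 on the plus strand and ends 34 bases before the start site at 173420604. Capitals mark the interferon element or its near match:
Ifi203: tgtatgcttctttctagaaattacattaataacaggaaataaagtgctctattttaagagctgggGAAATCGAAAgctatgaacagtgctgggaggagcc
Pyhin1: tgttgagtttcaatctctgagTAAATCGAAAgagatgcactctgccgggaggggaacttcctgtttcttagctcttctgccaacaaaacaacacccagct
Aim2: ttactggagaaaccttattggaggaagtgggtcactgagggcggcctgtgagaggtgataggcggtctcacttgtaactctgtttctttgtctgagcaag
The Ifi203 element starts at position -35 from the start site. The Pyhin1 element starts at -79 and carries the substitution G1T against the Ifi203 element, counted from 1 at its 5' end, so it holds AAATCGAAA but not the full core. The Aim2 window held none of the 3 words, and neither did the window at a further Ifi203 start site, 173942672. Ifi202b was the other family gene with neither the core nor AAATCGAAA. Of the 9 further genes, the 7 with at least 10 UMIs in myeloid cells were all at least 2-fold higher, Ifi202b (7.22-fold) among them. Of all genes with that minimum in myeloid cells, 10.8% were. In T cells 3 of 4 were, against 6.32% of all genes with at least 10 UMIs. The exception, Pydc4, held both words at a ratio of 0.517 (0.205 to 1.15). Pydc4 was abundant in A20 cells, and the part of A20 RNA in its T cell level was not tested. The members shown were picked with their ratios known, and whether the words go with the ratios was not tested. A match is a description of letters and not of binding.

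Ifi203, a nuclear PYHIN protein of lymphoid and myeloid cells, had 148 UMIs in the TAK-981 myeloid cells and 14 in the vehicle myeloid cells. Scaled to the UMI total of the class (CPM) this was 408 (345 to 479) and 26.2 (14.3 to 44.0), a 15.6-fold higher level in TAK-981 (8.98 to 29.1). In T cells the gene had 66 UMIs against 18, or 148 (115 to 189) and 20.9 CPM (12.4 to 33.0), a 7.11-fold higher level (4.17 to 12.7). The intervals of the arms did not overlap in either host class. A20 cells had 32 UMIs of Ifi203 against 9, or 0.986 and 0.170 CPM, which is 5.81-fold higher (2.71 to 13.8) at a level 414-fold (281 to 627) below that of the TAK-981 myeloid cells. The order of the levels was TAK-981 myeloid, TAK-981 T, vehicle myeloid, vehicle T, TAK-981 A20 and vehicle A20, and only the vehicle myeloid and vehicle T intervals overlapped as neighbours.

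Ifi204, the mouse gene most often compared with human IFI16, had 72 UMIs against 13 in myeloid cells. These were 198 (155 to 250) and 24.3 CPM (13 to 41.6), a ratio of 8.15 (4.48 to 16). In T cells it had 9 UMIs against 3, or 20.2 and 3.48 CPM, a ratio of 5.82 whose interval ran from 1.45 to 33.4. In A20 cells 5 UMIs stood against 3, a ratio of 2.72 (0.529 to 17.5), so no difference was detectable at this depth. Ifi204 was highest in TAK-981 myeloid cells, and the levels of vehicle myeloid, TAK-981 T and vehicle T cells followed with overlapping neighbours. Its 5' sequence is largely shared with other genes: of the 50-base words in the first 300 bases of its annotated transcripts, 83.3% also occur elsewhere, against 29.5% for Ifi203, 37.9% for Pyhin1 and 0% for Aim2. Over whole transcripts the shares were 20.02% for Ifi204, 12.2% for Ifi203, 33.7% for Pyhin1 and 0.628% for Aim2. The assay reads this end, so reads of Ifi204, Ifi203 and Pyhin1 could have been split or lost in the authors' counting.

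Pyhin1 had 208 UMIs in TAK-981 myeloid cells and 7 in vehicle myeloid cells, or 573 (498 to 657) and 13.1 CPM (5.27 to 27.0). The ratio was 43.7 (20.8 to 110). The T cells held 40 UMIs against 8, or 89.9 (64.3 to 122) and 9.27 CPM (4.0 to 18.3), a ratio of 9.70 (4.48 to 24.0). In A20 cells 293 UMIs stood against 159, or 9.03 and 3.00 CPM, a ratio of 3.01 (2.47 to 3.67). The arms did not overlap in any of the 3 classes. The order ran from TAK-981 myeloid to TAK-981 T cells and then to vehicle myeloid, vehicle T and TAK-981 A20 cells, whose neighbouring intervals overlapped, with vehicle A20 cells lowest.

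Aim2, the DNA-sensing subunit of the inflammasome, had most of its UMIs in A20 cells. There 2232 UMIs stood against 3526, or 68.8 (65.9 to 71.7) and 66.5 CPM (64.3 to 68.7), a ratio of 1.03 (0.980 to 1.09). In T cells 20 UMIs stood against 49, or 45.0 and 56.8 CPM, a ratio of 0.792 (0.446 to 1.36). In myeloid cells 14 UMIs stood against 17, or 38.6 and 31.8 CPM, a ratio of 1.21 (0.553 to 2.61). The intervals of the arms overlapped in all 3 classes, and so did every pair of neighbours in the order of its 6 levels, which A20 cells led. In the host cells these intervals include a level up to 2.24-fold lower in T cells and 2.61-fold higher in myeloid cells, while the A20 interval is narrow. The level of Aim2 in myeloid cells over that in A20 cells was 0.561 (0.306 to 0.944) in TAK-981 and 0.479 (0.279 to 0.768) in vehicle.

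**Figure D1:**
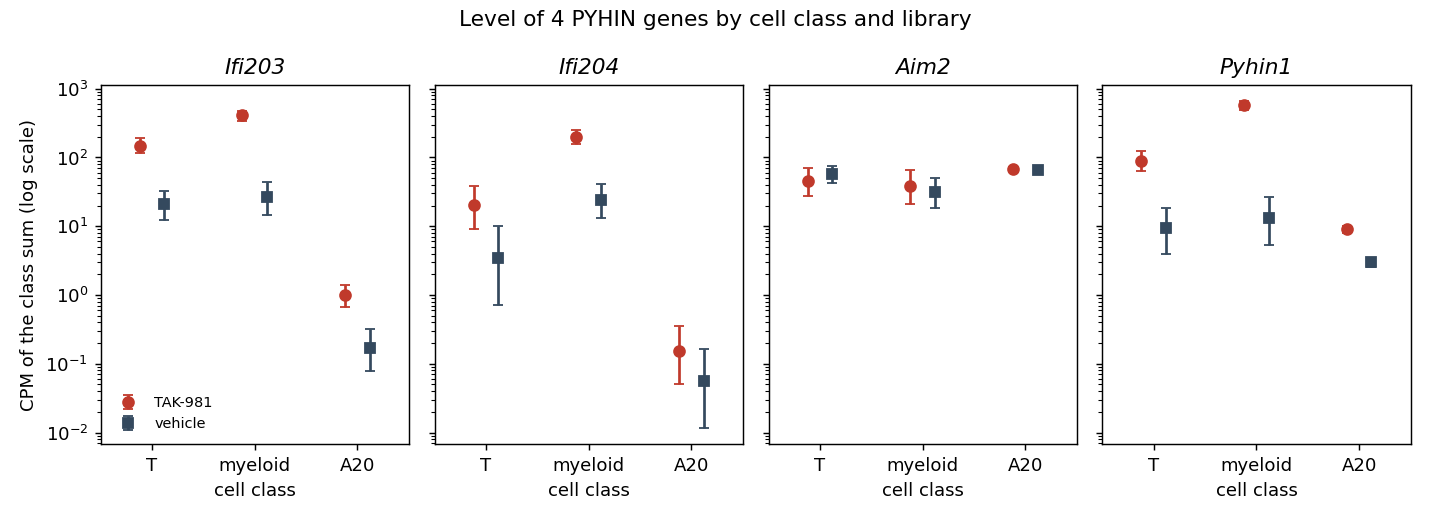
Level of each of the 4 genes in CPM of the class sum (vertical axis, log scale) in T, myeloid and A20 cells of the TAK-981 library (circles) and the vehicle library (squares), with exact Poisson 95% intervals. For Ifi203, Ifi204 and Pyhin1 the TAK-981 myeloid cells are highest, at 408, 198 and 573 CPM, while for Aim2 all 6 values lie between 31.8 and 68.8 CPM.

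These ratios can be set beside those of all genes with at least 10 UMIs in a class. In T cells 6.32% of 7868 genes were at least 2-fold higher in TAK-981, and 3 of the 4 members were. In myeloid cells 10.8% of 6417 genes were at least 2-fold higher, and again 3 of the 4 members were. In A20 cells 3.46% of 12250 genes were at least 2-fold higher, and 2 of the 3 members that reached 10 UMIs were, namely Ifi203 and Pyhin1. At full depth no member was at least 2-fold lower, where 9.32% of genes in T, 14.3% in myeloid and 1.5% in A20 cells were. With cells thinned to 4000 UMIs, Aim2 in T cells had 6 UMIs against 19, a ratio of 0.421 (0.138 to 1.10). The median log2 ratio of all genes was -0.04 in T, -0.09 in myeloid and 0.06 in A20 cells. Only 11 of 6417 genes had a ratio as high as that of Pyhin1 in myeloid cells, itself included, and 39 had one as high as that of Ifi203. For Aim2 the share of genes with a ratio at least as high was 69.9% in T, 30.6% in myeloid and 51.9% in A20 cells.

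Shares of cells were compared after each cell had been thinned to 4000 UMIs, which removes the gap in depth. Ifi203 was then found in 26 of 39 TAK-981 and 3 of 44 vehicle myeloid cells, and in 19 of 45 and 6 of 60 T cells. Pyhin1 was found in 27 of 39 against 3 of 44 myeloid cells and in 11 of 45 against 2 of 60 T cells. Ifi204 was found in 22 of 39 against 2 of 44 myeloid cells and in 6 of 45 against 0 of 60 T cells; the exact upper limit of the last share is 5.96%, and without thinning 3 of 60 vehicle T cells held it. Aim2 was found in 6 of 39 against 6 of 44 myeloid cells and in 5 of 45 against 16 of 60 T cells. In A20 cells, which gave Ifi203 in 6 of 1754 TAK-981 and 1 of 2191 vehicle cells, the share was 0.342% and 0.0456%, at unthinned median depths of 16195 and 22309 UMIs. Without thinning, the shares of myeloid cells were 82.1% against 20.5% for Ifi203, 82.1% against 20.5% for Ifi204, 79.5% against 11.4% for Pyhin1 and 28.2% against 29.5% for Aim2.

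Unthinned, Ifi203, Ifi204 and Pyhin1 were in 32, 32 and 31 of the 39 TAK-981 myeloid cells, so many cells would hold several members by these shares alone. Whether members met more often than that was not tested. Of 39 TAK-981 myeloid cells, unthinned, 21 held 3 members and 8 held all 4, while of 44 vehicle myeloid cells 1 held 3 and 0 held all 4. After thinning, 14 TAK-981 myeloid cells held 3 and 3 held all 4, against 0 and 0 in vehicle. Ifi203 and Pyhin1 shared 28 TAK-981 myeloid cells against 4 vehicle ones, and Ifi203 and Ifi204 shared 30 against 3. Among T cells 5 TAK-981 cells held 3 members and 2 held all 4, against 1 and 1 in vehicle. The highest count in a single cell was 28 UMIs of Pyhin1 in a TAK-981 myeloid cell, which was 13.5% of that gene's UMIs in the class.

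**Figure D2:**
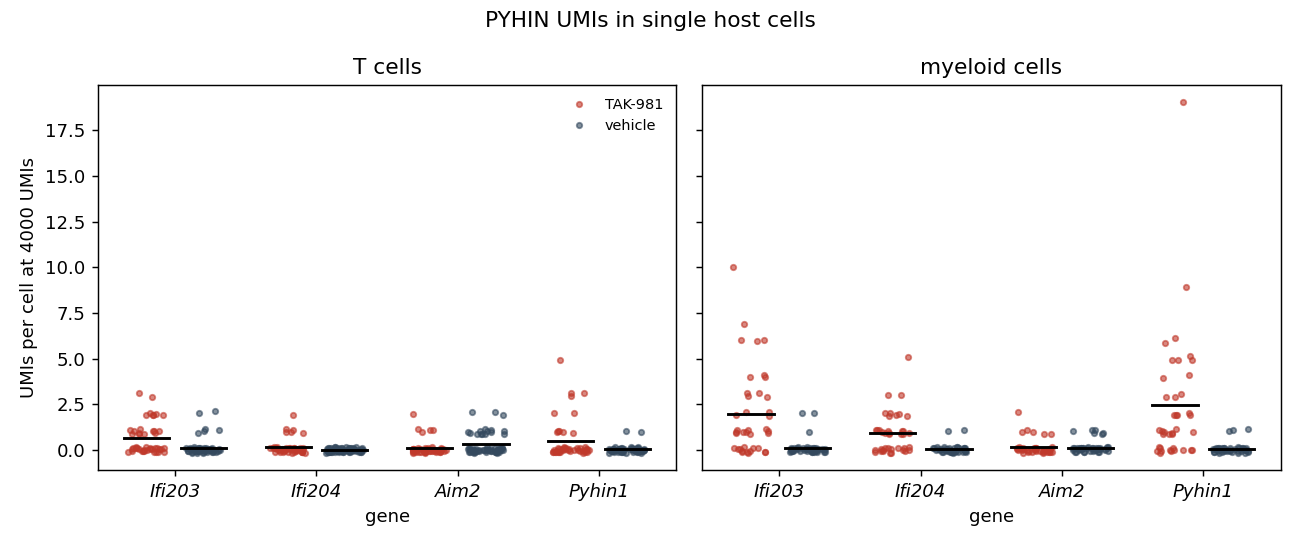
UMIs per cell at 4000 UMIs (vertical axis) of the 4 genes in each T cell (left) and myeloid cell (right); points are single cells of the TAK-981 (red) and vehicle (blue) library, shifted slightly around their whole number so that they can be told apart, and bars are means. Mean Pyhin1 was 2.46 against 0.0682 UMIs and mean Ifi203 1.97 against 0.114 UMIs in myeloid cells, while Aim2 stayed at 0.179 against 0.136.

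T cells with a UMI of Cd8a or Cd8b1 (22 TAK-981 and 37 vehicle cells) gave ratios of 7.17 (3.51 to 15.8) for Ifi203, 8.91 (3.48 to 27.0) for Pyhin1 and 0.727 (0.286 to 1.64) for Aim2. T cells without one (23 and 23) gave 7.07 (3.09 to 18.9), 13.4 (3.24 to 119) and 0.808 (0.362 to 1.72), so the intervals of the T cell subsets overlapped for each gene. Within the TAK-981 library the level of Ifi203 in cells with CD8 over that in cells without was 1.02 (0.607 to 1.70), and that of Pyhin1 was 1.27 (0.651 to 2.5).

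The T cell gate also let through 1 TAK-981 barcode with myeloid transcripts. It held 5 Cd3, 5 Csf1r, 20 Tyrobp and 60 Il1b UMIs, 1 UMI of Lyz2 and, of the family, 3 UMIs of Ifi203, 2 of Ifi204, 1 of Aim2, 4 of Pyhin1 and all 6 T cell UMIs of Ifi205. Leaving it out gave ratios of 6.92 for Ifi203, 4.61 for Ifi204 and 8.90 for Pyhin1 in T cells, an alternative chosen after the data had been seen. Of 11 myeloid markers 2 reached 10 UMIs in T cells, Tyrobp at 25 against 8 and Fcer1g at 25 against 7, with a summed level of the list of 126 CPM in TAK-981 and 18.5 CPM in vehicle, and Fcgr3, Itgam, Adgre1 and the C1q genes at 0. NK cells share Tyrobp and Fcer1g, and 19 of 45 and 24 of 60 T cells held an NK marker UMI, with Klrd1 at 72 against 58 UMIs.

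Some marker genes within the myeloid gate differed between the libraries, and whether the kinds of cells or their transcripts differed was not tested. Of 11 myeloid markers 4 were at least 2-fold lower in TAK-981 and 0 at least 2-fold higher. Among all genes with at least 10 UMIs these shares were 14.3% and 10.8%. Lyz2, Csf1r, Cd14, Fcgr3, Itgam, Tyrobp and Fcer1g had ratios from 0.717 to 1.23. Cells with at least 5 UMIs of the C1q genes, which mark tissue macrophages, numbered 0 of 39 in TAK-981 and 6 of 44 in vehicle. C1qa, C1qb and C1qc had 0 UMIs against 100, 104 and 93, of which 1 vehicle cell per gene gave 49%, 41.3% and 41.9%. Adgre1, another macrophage gene, had 13 against 46. The neutrophil genes S100a8 and Mmp8 had 46 against 9 and 64 against 4 UMIs. S100a9 did not reach 10 UMIs, and Retnlg was at 0 in both libraries. Without the C1q cells the ratio of Ifi204 was 22.0 (8.21 to 82.8) in place of 8.15, since they held most of its vehicle UMIs and the other 38 vehicle cells held 4. Ifi203 then had a ratio of 15, Pyhin1 36.2 and Aim2 1.07. The part of the neutrophil genes in these ratios was not tested.

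Aim2 in host cells was set beside the A20 RNA that reached them. In T cells 4 A20 and B cell markers stood at a median of 21.6% of their A20 level in TAK-981 and 34.7% in vehicle. The same share of A20 Aim2 is 14.8 and 23.0 CPM, and 45.0 (27.5 to 69.5) and 56.8 CPM (42.0 to 75.1) were measured. In 40 and 47 T cells with fewer than 5 UMIs of those markers, Aim2 was at 30.7 and 53.9 CPM, from 10 and 28 UMIs, a log2 ratio of -0.81. In myeloid cells the markers stood at 6.17% and 4.09% of their A20 level, which corresponds to 4.24 and 2.72 CPM of Aim2 against 38.6 and 31.8 measured. The part of A20 RNA in the host levels of Aim2 was not tested. Ifi203, Ifi204 and Pyhin1 were lower in A20 cells than in the host cells of the same library.

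In the other direction, Ifi203 in A20 cells stood at 0.242% of its myeloid level in TAK-981 and 0.647% in vehicle. Myeloid markers stood there at a median of 0.0286% and 0.0119% and a highest of 0.102% and 0.127%. Pyhin1 in A20 cells stood at 1.57% and 22.9% of its myeloid level. Ifi204 in A20 cells stood at 0.0776% and 0.232% of its myeloid level, the first of which is below the highest marker. Against T cells as the source, Ifi203 in A20 cells stood at 0.664% and 0.814% of its T cell level, above the median of 7 T cell markers (0.0790% and 0.114%). The highest of the 7 (3.87% and 4.77%) was Cd2, which was found in 16.4% and 21.5% of A20 cells. Trac, Trbc2 and Thy1 had at most 4 UMIs there in a library. Trbc1 had 1 and 8, Cd5 had 0 and 12, and Lck had 57 and 111 UMIs there in TAK-981 and vehicle. The source of the Cd2 and Lck UMIs in A20 cells was not tested. The A20 gate had already left out barcodes with a UMI of Lyz2 or the Cd3 genes, so the shares of markers and members were measured after that removal. The part of stray host RNA in the A20 levels was not tested.

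A20 cells were split, after thinning, by whether they held a UMI of Isg15, Ifit1, Ifit3, Rsad2, Mx1 or Usp18; 244 of 1754 TAK-981 and 49 of 2191 vehicle cells did. In the TAK-981 library Pyhin1 was at 32.8 CPM in cells with such a UMI and at 5.63 CPM in cells without, a ratio of 5.82 (3.48 to 9.73). The vehicle library had 0 Pyhin1 UMIs in the 49 cells with such a UMI and 37 in the other 2142. The upper limit of that 0 is 18.8 CPM, and that of the ratio of cells with over cells without is 4.58. So few cells cannot show whether Pyhin1 was higher in them. Among cells without an interferon UMI, Pyhin1 was at 5.63 CPM in TAK-981 and 4.32 CPM in vehicle, a ratio of 1.30 (0.794 to 2.13). Aim2 was at 88.1 CPM in TAK-981 cells with an interferon UMI and at 63.1 CPM in those without, a ratio of 1.40 (1.09 to 1.77), and the same ratio in vehicle was 0.755 (0.343 to 1.44). The split uses genes of the same cells, so these ratios describe cells and not conditions.

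**Figure D3:**
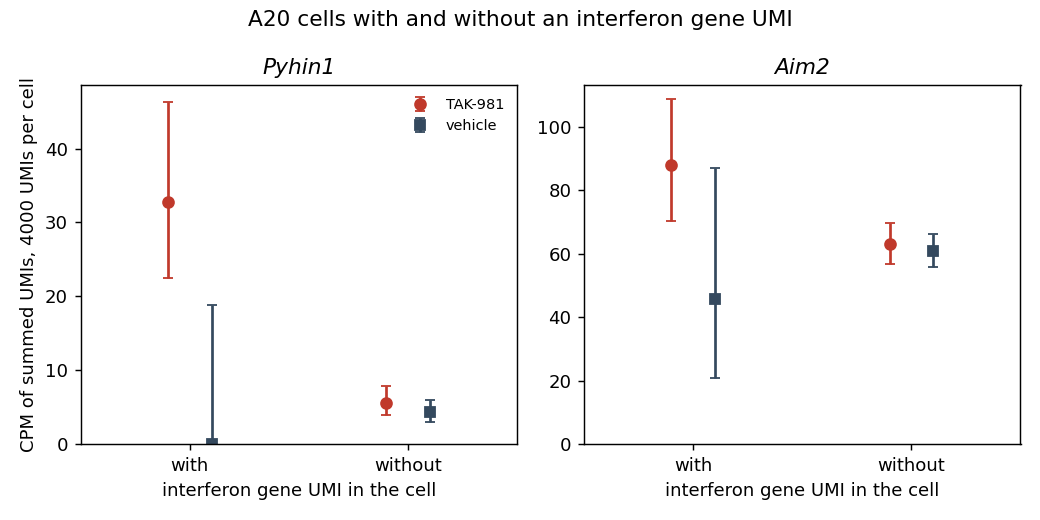
Pyhin1 and Aim2 in CPM of summed UMIs, 4000 per cell (vertical axes), in A20 cells with and without a UMI of 6 interferon genes, for the TAK-981 (circles) and vehicle (squares) library, with exact Poisson 95% intervals. Pyhin1 is highest in TAK-981 cells with such a UMI, at 32.8 CPM, and is at 5.63 and 4.32 CPM in cells without.

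Of the 9 other family genes, most that reached 10 UMIs over both libraries were higher in TAK-981 as well. In myeloid cells 7 of 9 reached 10 UMIs and 7 of these were at least 2-fold higher, with a median log2 ratio of 2.85. In T cells 3 of 4 were, with a median of 2.79, and in A20 cells 4 of 5 were, with a median of 2.36. Of all genes with at least 10 UMIs, 10.8% in myeloid, 6.32% in T and 3.46% in A20 cells were. The minimum was summed over both libraries, so a gene could reach it through the higher library alone. Gm4955 (2 against 0 UMIs) and Pydc4 (2 against 4) fell short of it in myeloid cells. The deposited files use older symbols for some family genes: Gm4955 (now Ifi206), BC094916 (Ifi214), Pydc4 (Ifi213), Pydc3 (Ifi208), AI607873 (Ifi207) and Mnda (Ifi211).

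Mndal, a relative of human MNDA, had 300 UMIs against 62 in myeloid cells (7.12-fold higher), 169 against 66 in T cells (4.97-fold) and 44 against 14 in A20 cells (5.13-fold). Its annotated span overlaps Ifi203 and holds that of Mnda, all on the same strand, so reads of these genes could have been exchanged. Of the 50-base words of Mnda transcripts, 72.8% also occur in other genes. In the first 300 bases this share was 62.0% for Gm4955, 48.1% for Pydc3, 41.8% for Mnda, 29.7% for BC094916, 20.1% for Mndal and 14.2% for Pydc4. It was 0% for AI607873, Ifi202b and Ifi205. Of the words of whole Pyhin1 transcripts, 33.4% also occur in BC094916, so reads of Pyhin1 and BC094916 could have been exchanged too. AI607873 had 233 against 54, Ifi202b 162 against 33, Ifi205 186 against 23 and Mnda 75 against 16 UMIs in myeloid cells, with ratios of 6.35, 7.22, 11.9 and 6.90. In A20 cells these 4 genes had at most 6 UMIs in a library, and Ifi205 had 0 in both. BC094916 had 41 against 3 UMIs in myeloid cells (20.1, 6.42 to 102), 30 against 6 in T cells (9.70, 3.97 to 28.5) and 50 against 19 in A20 cells (4.30, 2.49 to 7.72). Pydc3 had 15 against 1, 38 against 6 and 47 against 7 UMIs in the same order, or 22.1-fold (3.40 to 929), 12.3-fold (5.15 to 35.6) and 11-fold higher (4.92 to 28.8).

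Pydc4 was abundant in A20 cells. There 3068 UMIs stood against 2560, or 94.5 and 48.3 CPM, a ratio of 1.96 (1.86 to 2.06). In T cells its 8 against 30 UMIs, or 18.0 and 34.8 CPM, gave a ratio of 0.517 (0.205 to 1.15). The A20 markers stood in T cells at a median of 21.6% of their A20 level in TAK-981 and 34.7% in vehicle. The part of A20 RNA in the T cell level of Pydc4 was not tested. Gm4955 was found in 13 TAK-981 A20 cells and in none of 2191 vehicle ones. This is a ratio of 7.08 from a floor of 3 UMIs over the class, with a lower 95% limit of 4.98.

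**Figure D4:**
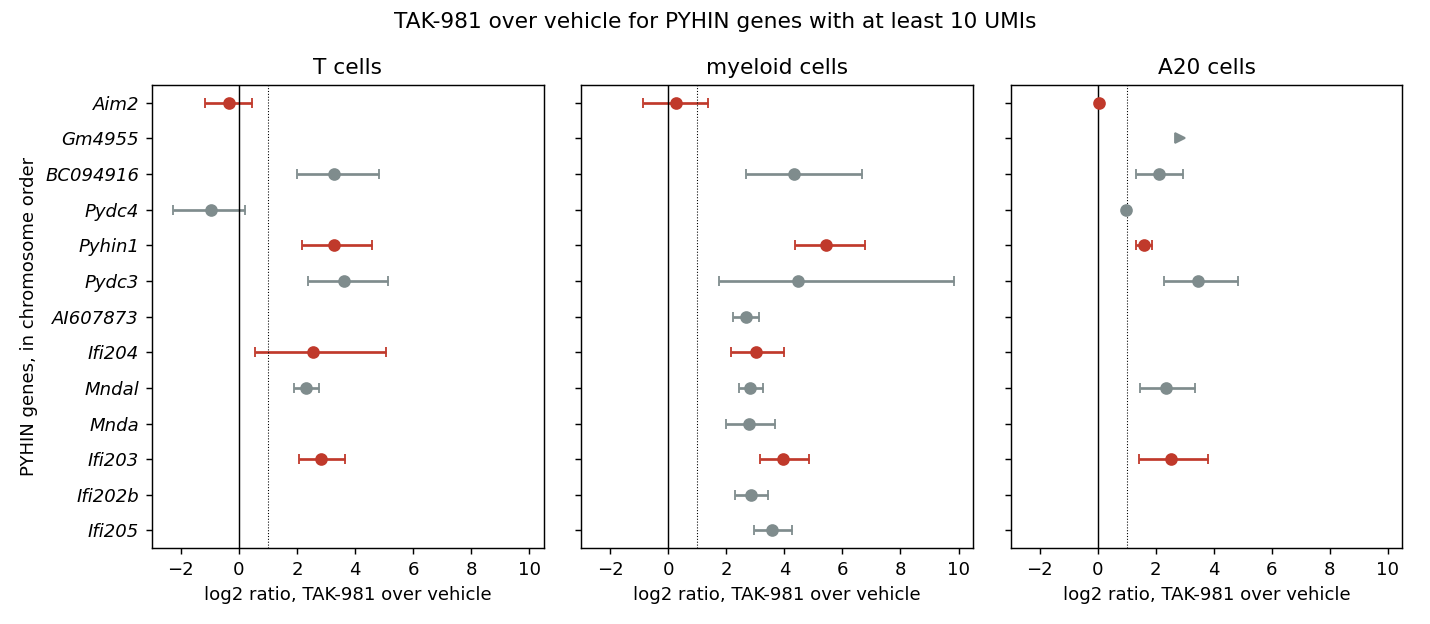
Log2 ratio of TAK-981 over vehicle (horizontal axis) with exact 95% intervals for the PYHIN genes that reached 10 UMIs in T, myeloid and A20 cells. Genes are in chromosome order, with members red and others grey. A triangle is a ratio from a floor of 3 UMIs in vehicle, and the dotted line marks a ratio of 2. Aim2 lies near 0 in all 3 classes (-0.34, 0.28 and 0.05), while Pyhin1 is at 3.28, 5.45 and 1.59.

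Genes that work with AIM2 in the inflammasome gave mixed values. Of 11 listed genes 8 reached 10 UMIs in each class, and 4 in T, 4 in myeloid and 1 in A20 cells were at least 2-fold higher, with median log2 ratios of 1.12, 0.56 and 0.09; the 4 in T cells and the 1 in A20 cells include Il1b. Casp4, the caspase that senses bacterial lipopolysaccharide, had 81 against 22 UMIs in myeloid cells (5.42, 3.35 to 9.12), 13 against 4 in T cells (6.30, 1.95 to 26.5) and 187 against 161 in A20 cells (1.90, 1.53 to 2.36). Casp1, the effector caspase, had 68 against 28 UMIs in myeloid cells (3.57, 2.27 to 5.76) and 1297 against 2122 in A20 cells (0.998, 0.931 to 1.07). Pycard, the adaptor, had ratios of 1.29 (0.899 to 1.85) in T, 0.946 (0.636 to 1.40) in myeloid and 0.909 (0.773 to 1.07) in A20 cells.

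Il1b, the cytokine that caspase-1 matures, was the listed gene at least 2-fold lower in myeloid cells, with 669 against 2226 UMIs (0.442, 0.405 to 0.482). Il1rn, the receptor antagonist, had 294 against 581 UMIs there (0.745, 0.645 to 0.858). In T cells all 60 Il1b UMIs came from the barcode with myeloid transcripts, and in A20 cells 84.6% of the 13 TAK-981 Il1b UMIs came from 1 cell, so the Il1b ratios of those classes describe single barcodes. Gsdmd, the pore-forming protein, had 34 against 60 UMIs in myeloid cells, a ratio of 0.834 (0.531 to 1.29), 290 against 504 in A20 cells (0.940, 0.810 to 1.09) and 13 against 8 in T cells (3.15, 1.21 to 8.77).

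Of 14 listed genes of cytosolic DNA sensing, 12 reached 10 UMIs in T, 10 in myeloid and 13 in A20 cells, and 4, 4 and 2 of these were at least 2-fold higher, with none at least 2-fold lower. The median log2 ratios were -0.05, 0.81 and 0.08. Irf7, a transcription factor of the interferon loop, had ratios of 12.8 in T, 12.5 in myeloid and 4.74 in A20 cells. Zbp1, a sensor of Z-form nucleic acid, had 7.27, 5.62 and 3.74, and Samhd1, a nucleotide hydrolase, had 4.75, 3.29 and 1.6. Mb21d1, which encodes the DNA sensor cGAS, had 21 against 3 UMIs in myeloid cells (10.3, 3.08 to 53.9). Tmem173, which encodes STING, had ratios of 0.808 (0.486 to 1.31), 1.59 (0.996 to 2.54) and 0.934 (0.866 to 1.01). Ifnb1 had 0 UMIs in all 3 classes of both libraries.

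**Figure D5:**
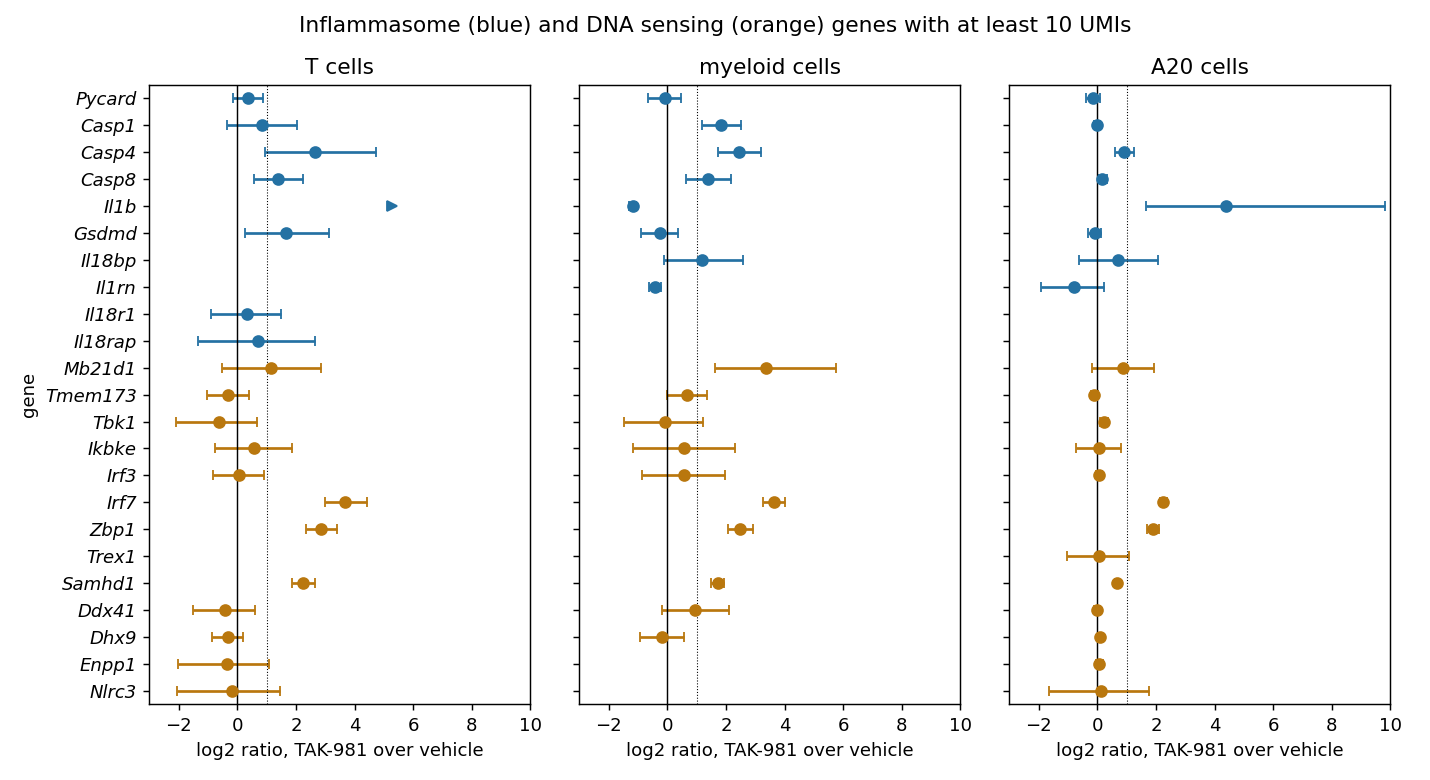
Log2 ratio of TAK-981 over vehicle (horizontal axis) with exact 95% intervals for inflammasome genes (blue) and DNA sensing genes (orange) that reached 10 UMIs in T, myeloid and A20 cells. A triangle is a ratio from a floor of 3 UMIs in vehicle, and the dotted line marks a ratio of 2. Irf7 (12.8, 12.5 and 4.74-fold) and Zbp1 (7.27, 5.62 and 3.74-fold) lie to the right in all 3 classes, and myeloid Il1b lies to the left at 0.442-fold.

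For reference, 21 of 21 measured genes of a list of 24 interferon genes were at least 2-fold higher in T cells, 23 of 24 in myeloid and 19 of 20 in A20 cells, with median log2 ratios of 3.47, 4.02 and 2.09. On the same scale Ifi203 was at 2.83, 3.96 and 2.54, Pyhin1 at 3.28, 5.45 and 1.59, and Aim2 at -0.34, 0.28 and 0.05.

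Genes with the most similar profile over the 6 levels were sought among 11061 genes with at least 50 UMIs, by the root mean square difference of log2(CPM + 10) after centring each gene. Nearest to Ifi203 were Ifi47 (0.32), Phf11b (0.34) and Slfn1 (0.34), and nearest to Ifi204 were Pnp (0.11), Casp4 (0.19) and Dhx58 (0.19). Mx1 (0.22), Cmpk2 (0.28) and Ifit2 (0.37) were nearest to Pyhin1. Nearest to Aim2 were Lrpprc (0.03), Mybl1 (0.04) and Polr3b (0.05), genes that on this scale differed little between the arms and were highest in A20 cells. The 6 values share 2 libraries and their depth, so the likeness is a description.

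Among barcodes with 10% or more mitochondrial UMIs (376 in TAK-981 and 124 in vehicle), Aim2 had 162 against 60 UMIs, a ratio of 1.13 (0.832 to 1.54), and Pyhin1 17 against 5, a ratio of 1.42 (0.502 to 4.91). Lyz2 had 0 UMIs in these barcodes in both libraries, and Cd79a was found in 73.4% of them in each.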

How the data were processed

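Single-cell RNA was measured in 1 library per arm (TAK-981 and vehicle). The deposited matrices hold raw UMI counts, whole numbers for each pair of gene and cell, per the file headers. The submitters' processing notes name Cell Ranger 2.1.1 and Seurat 2 without saying what each did. The genome build is not given in the sources used here. The lowest total per barcode was 4670 and 5965 UMIs, so barcodes had been selected before deposit.

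Counts were analysed in Python 3.11.15 (numpy 2.4.6, scipy 1.17.1, pandas 2.3.3, matplotlib 3.10.9). Cells with under 10% mitochondrial UMIs were gated into 3 classes by the rules given with the cell numbers, and no cell passed 2 gates. UMIs were summed over the cells of a class and scaled to CPM. Levels carry exact Poisson intervals, ratios exact conditional binomial intervals and shares exact (Clopper-Pearson) intervals, all at 95%. They take UMIs and cells as independent and cover counting error only. A level of 0 was set to a floor of 3 UMIs over the class in ratios. Background shares are of genes with at least 10 UMIs over both libraries. Thinning drew 4000 UMIs per cell without replacement (seed 1), and no cell was shallower. No doublet caller was run; host cells with 5 or more A20 marker UMIs were left out in an alternative. The ratio code was tested on simulated data.

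Named genes were the members, the other PYHIN genes of the files, genes of the inflammasome, DNA sensing and interferon lists with at least 20 UMIs in a class of either library, and the 3 genes nearest in profile to each member; markers and Ifnb1, outside this rule, are given beside the results they touch. The members and lists were chosen with earlier results of these data known. Alternatives changed the filters, gates, scaling, thinning and weighting of cells. Promoter windows came from RefSeq (GRCm38.p6) by symbol.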

Additional observations from a re-analysis of the deposited data

Results flagged for a closer look

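Cells that passed the mitochondrial filter but none of the 3 gates (182 in TAK-981 and 160 in vehicle) entered no comparison, and 3 of the 4 members were nevertheless higher there in TAK-981. Ifi203 had 14 UMIs against 2, a ratio of 7.92 (1.82 to 71.8). Pyhin1 had 21 against 8, a ratio of 2.97 (1.26 to 7.75). Ifi204 had 5 against 0, which is at least 1.89-fold higher from a floor of 3 UMIs. Aim2 had 112 UMIs in both libraries, a ratio of 1.13 (0.863 to 1.48). These cells held 17 and 19 UMIs of Lyz2 and 5 and 7 of Cd3e; the part of host cells below the gates in these values was not tested.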

How the results depend on the processing

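Over 110 alternatives of the member ratios, 105 stayed inside the counting interval of the reported value. No ratio of Ifi203, Ifi204 or Pyhin1 changed sign. Ifi203, Ifi204 and Pyhin1 were at least 2-fold higher in T and myeloid cells under 21 of 21 alternatives each, and Aim2 under 0 of 21. On the log2 scale, thinning to 4000 UMIs gave -1.25 for Aim2 in T cells (from -0.34), 4.34 for Ifi204 in myeloid cells (from 3.03), 0.14 for Aim2 in A20 cells (from 0.05) and 1.16 for Pyhin1 in A20 cells (from 1.59). Leaving out the C1q cells, chosen after seeing the data, gave 4.46 for Ifi204 in myeloid cells. Pyhin1 in myeloid cells was at 6.24 without mixed barcodes (from 5.45). Aim2, whose intervals include no difference in any class, changed sign in T cells under the looser gate (0.27) and in A20 cells under median-of-ratios scaling (-0.01). Ifi204 in A20 cells gave no value after thinning and under the stricter gate. The number of genes at least 2-fold higher was 112 in T cells (from 497), 233 in myeloid cells (from 692) and 142 in A20 cells (from 424) with a minimum of 50 UMIs, and 694 in A20 cells with no minimum; the minimum itself sets how many genes are counted. No paired analysis was possible because there is 1 library per arm and the labels give no replicate numbers, and for the same reason no replicate could be left out. The low UMI numbers of Ifi204 in T and A20 cells leave wide intervals.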
